A study of Homo sapiens with 24 samples.

Results

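The response of BL-41 cells to 12 h of artesunate was read from 4 of the 24 arrays of the series: the 2 arrays labelled BL41, 12 h, artesunate and the 2 labelled BL41, 12 h, control. BL-41 is an established cell line from a Burkitt lymphoma, an aggressive B-cell tumor, and was taken into the study as a line with a translocated MYC gene. The artesunate groups received the drug at 5 μM. The controls are called untreated in the labels and vehicle-treated in the study's text. The 2 arrays of each group are numbered d1 and d3, and the study's methods call them technical replicates, while the labels do not say whether they came from separate cultures. The p-values given here measure the spread between these arrays, which may be technical, and whether they cover the spread between cultures is not known. The whole series holds 12 groups of 2 arrays: a 0 h control, a 4 h artesunate, a 12 h control and a 12 h artesunate group of BL-41 and of 2 lines of diffuse large B-cell lymphoma, SU-DHL-4 and Oci-Ly-2. The other 20 arrays entered the estimate of the spread, and served as context.

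Artesunate is a semisynthetic derivative of artemisinin, the antimalarial of sweet wormwood. Its endoperoxide bridge is opened by ferrous iron and heme, and the products react with many proteins. Cells meet damaged proteins, a shortage of amino acids or a loss of heme with the integrated stress response, in which kinases of the translation factor eIF2 lower protein synthesis while the transcription factor ATF4 is made. ATF4 and its partner CHOP, the product of DDIT3, drive genes of amino acid supply, tRNA charging and redox balance. The unfolded protein response of the endoplasmic reticulum (ER) shares this arm through the kinase PERK and has a pair of others, IRE1 with XBP1 and ATF6, which drive ER chaperones. Heat shock factor HSF1 governs a separate set, the chaperones of the cytosol.

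The arrays were HumanHT-12 v4 BeadChips, deposited as linear intensities together with a detection p for every probe. Of 47319 probes, between 16855 and 18171 were detected (detection p under 0.05) on the 4 arrays, against 16156 to 18171 on all 24. Levels below are log2 signals after background correction and quantile normalization, and a difference of 1 on this scale is a doubling. The d1 and d3 arrays correlated at r = 0.9916 in the control and 0.992 in the artesunate group over the 25017 probes tested, and the median probe differed by 0.157 between the arrays of either group. ACTB and GAPDH, general genes of the cytoskeleton and of glycolysis, differed by -0.01 and -0.03 between artesunate and control. Of 6 B-cell markers with a probe, 5 (BLK, CD22, CD79A, CD79B and MS4A1) were detected on all 4 arrays and PAX5 on none. Of 6 markers of germinal centre and Burkitt cells, 5 (BCL6, CD38, MME, MYC and TCL1A) were likewise detected throughout. None of the 11 T-cell and NK-cell markers and none of the 10 fibroblast and epithelial markers was detected on all 4 arrays, and of the myeloid and red-cell or platelet markers LYZ and PPBP alone were. In RNA from a whole culture, fewer cells of a kind and less of a transcript per cell cannot be told apart.

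The 2 array numbers did not run alike across the groups. The difference of d3 from d1 over all probes correlated at 0.134 to 0.207 among the 0 h, 4 h and 12 h control groups of BL-41, but at -0.144 between the 12 h control and the 12 h artesunate group. At 12 h, control d1 resembled artesunate d3 (r = 0.9859) more than artesunate d1 (r = 0.98465), and control d3 resembled artesunate d1 (r = 0.98584) more than artesunate d3 (r = 0.98474). XBP1 is the clearest example among the genes of the stress pathways. Its level was 9.38 and 8.03 on control d1 and d3, and 8.43 and 9.73 on artesunate d1 and d3. KLF2, a transcription factor of lymphocyte quiescence and homing, stood at 7.84 and 6.05 on the controls and at 5.63 and 6.70 under artesunate. Its difference of d3 from d1 was -2.29 at 0 h, -1.61 at 4 h, -1.79 in the 12 h control and 1.08 at 12 h artesunate. The 10 genes with the widest gaps (KLF2, PTPN6, NLRP7, XBP1, FGR, BHLHE40, SUB1, ITGB7, PFKFB4 and HCP5) all overlapped between the groups, and none was called. Genes picked for wide gaps are prone to overlap, so this is no support for the calls of other genes.

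**Figure D1:**
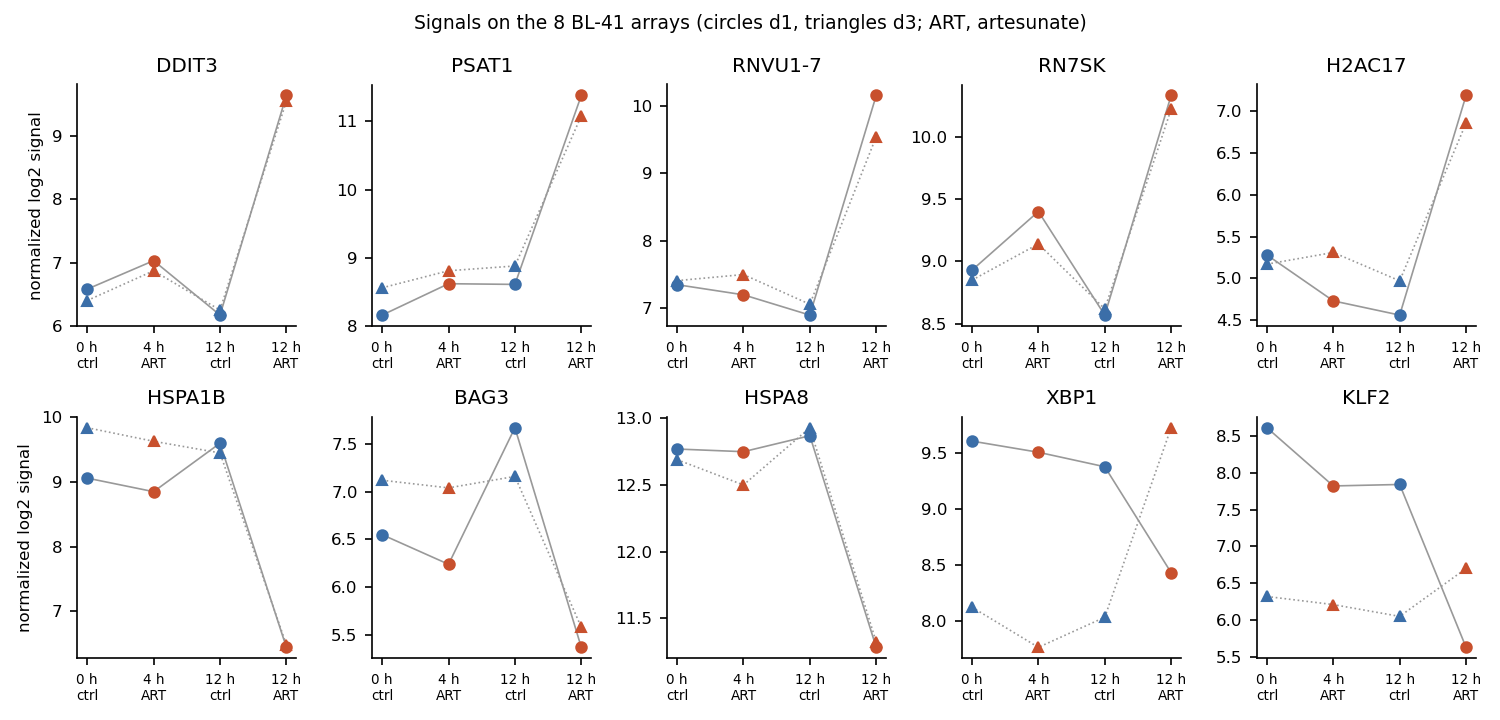
Normalized log2 signal (vertical axis, a scale of its own in each panel) of 10 genes on the 8 BL-41 arrays, by group. Circles are d1 and triangles d3, joined by solid and dotted lines; blue is control and red artesunate. DDIT3, PSAT1, RNVU1-7, RN7SK and H2AC17 were higher and HSPA1B, BAG3 and HSPA8 lower on both 12 h artesunate arrays than on the other 6, whereas d1 and d3 of XBP1 and KLF2 change places at 12 h artesunate.

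Over the 12908 genes tested with limma, 256 (1.98%) were called at a log2 difference beyond 0.5 and a Benjamini-Hochberg adjusted p under 0.01, of which 170 (1.32%) were higher and 86 (0.666%) lower under artesunate. The median difference of all genes was 0.0146. Rises were larger than falls: 89 genes rose and 20 fell by over 2-fold, and 22 rose and 2 fell by over 4-fold. All 256 had no overlap between the 2 control and the 2 artesunate arrays, but so had 48.0% of all genes, 25.8% with artesunate above and 22.2% below. Set against all 6 other BL-41 arrays, both artesunate arrays were above every one of them for 169 of the 170 higher genes and below every one for 65 of the 86 lower genes. Over all genes the shares were 11.5% above and 8.86% below. The 6 arrays include the 2 controls that defined the calls, so these counts are not separate support for them. Of the 170, 13 were detected on fewer than 2 of the 22 arrays outside the 12 h artesunate group. For these a place above the other arrays was all but fixed. With 1 of the 4 arrays left out and the lone array assumed to vary like the other groups, between 90 genes (without control d3) and 103 (without artesunate d1) were called, with 93 without control d1 and 98 without artesunate d3. Of the 256 genes, 51 higher and 10 lower ones kept the call at the same probe in all 4 of these fits.

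**Figure D2:**
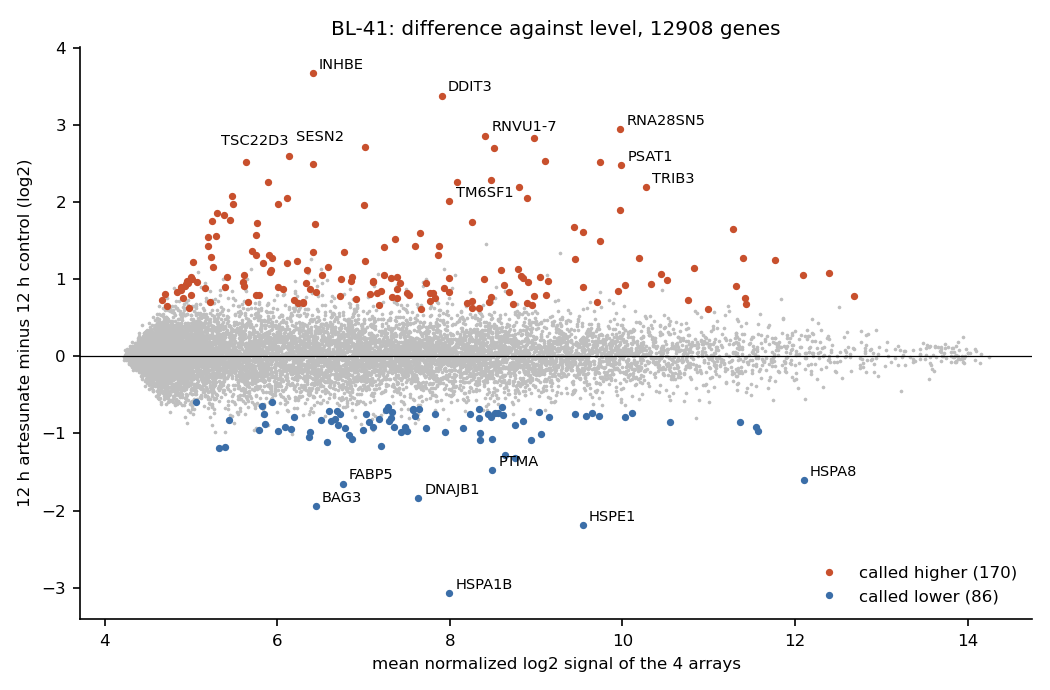
Difference of 12 h artesunate from 12 h control (log2, vertical axis) against the mean level of the 4 arrays (log2, horizontal axis) for the 12908 genes tested in BL-41. The 170 genes called higher are red, the 86 called lower blue and the others grey. The rises reach 3.68 (INHBE) and the falls -3.07 (HSPA1B), and called genes occur over most of the range of levels.

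Stress factors and targets of ATF4 and CHOP had the highest share of called genes and the highest median among the lists of protein-coding genes. Of 25 members tested (of 29 listed), 14 were called higher and none lower, against 1.32% higher among all genes, and their median difference was 0.849. DDIT3, which encodes CHOP, was at 6.17 and 6.25 on the control arrays and at 9.64 and 9.55 on the artesunate arrays. It rose by 3.38 ± 0.12 (SE, limma, n = 2 arrays a group, adjusted p = 1.01e-12), a 10.4-fold change, and the gap between its arrays was small beside it. SESN2, a stress-induced brake of the growth kinase mTORC1, went from 5.03 and 4.65 to 7.48 and 7.40, a rise of 2.60 ± 0.17 (adjusted p = 1.47e-08). TRIB3, a pseudokinase that binds ATF4 and AKT, had the closest replicates of the group, with 9.19 and 9.16 in the control and 11.36 and 11.39 under artesunate (2.20 ± 0.19, adjusted p = 5.11e-07). CHAC1, which degrades glutathione, was detected on neither control array and reached 6.58 and 6.37, at least 3.17-fold higher. Folds written "at least" set the mean of the artesunate arrays against the dimmest signals detected on the control arrays. CCPG1, a receptor for autophagy of the ER, rose by 1.98 and PPP1R15A, the GADD34 subunit that restores eIF2, by 1.74. DDIT4, another brake of mTORC1, rose by 2.52, but its controls stood 0.92 apart (8.94 and 8.02) and its adjusted p was 2.35e-03. ATF4 mRNA itself, already at 12.27 and 12.32 in the control, rose by 0.78 ± 0.15 to 13.11 and 13.05 (adjusted p = 4.22e-03). This call rests on 1 of 3 ATF4 probes, and the probe with the lowest difference gave -0.07.

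Of the 14, 10 kept the call whichever of the 4 arrays was left out. ATF4, CEBPG and SLC3A2 lost it in at least 3 of the 4 fits, and DDIT4 kept it only without control d1. Of the eIF2 kinases, EIF2AK1 and EIF2AK4, the sensors of heme and of uncharged tRNA, differed by 0.16 and 0.20, and EIF2AK3 (PERK) by -0.39, none called. NUPR1 differed by -0.07 and ERO1A by -0.09. INHBE, a subunit of activin and a target of the same pathway, showed the largest rise of all genes, from 4.66 and 4.49, not detected, to 8.26 and 8.24 (3.68 ± 0.24, adjusted p = 1.47e-08). It was at least 10.9-fold higher, and it was the only one called of 5 secreted stress factors tested. SYTL1, which tethers secretory vesicles, and TSC22D3, a transcriptional regulator also known from glucocorticoid treatment, were likewise undetected in the controls and at least 3.28-fold and 4.26-fold higher. IFRD1, a transcriptional coregulator, rose by 2.20, PPM1M, a protein phosphatase, by 2.06 and DNASE2, the acid DNase of the lysosome, by 2.26.

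**Figure D3:**
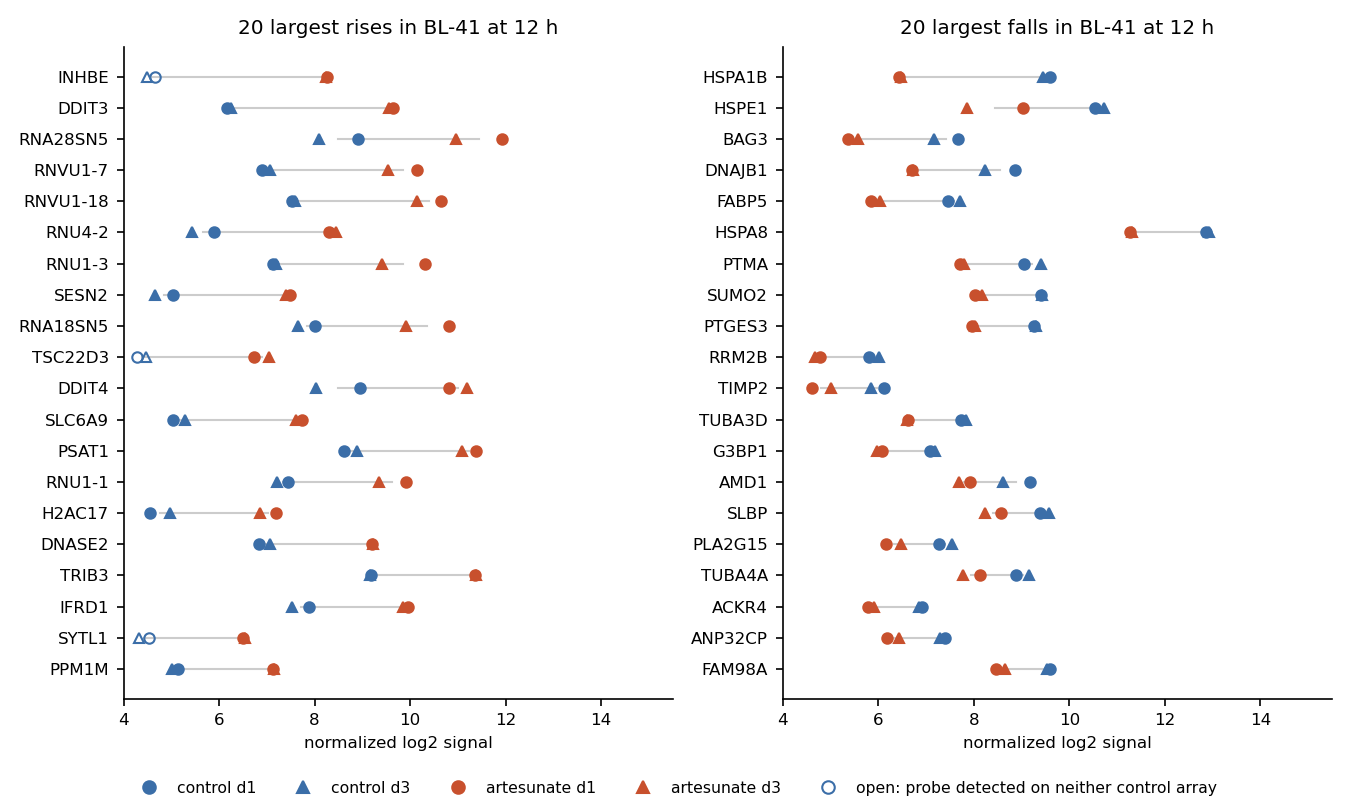
Normalized log2 signal (horizontal axis) of the 20 genes with the largest rises (left) and the 20 with the largest falls (right) among called genes in BL-41 at 12 h. Each symbol is 1 array (circles d1, triangles d3; blue control, red artesunate; open where neither control array detected the probe), and grey lines join the group means. Rises run from 2.06 (PPM1M) to 3.68 (INHBE) and falls from -1.01 (FAM98A) to -3.07 (HSPA1B), with no overlap of the groups for any gene shown.

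A sequence to which ATF4 binds together with C/EBP factors, the C/EBP-ATF response element (CARE), was looked up in the promoters of the called genes to show where the letters occur. The motif searched was TGATGNAA on both strands, in the 250 bases before the RefSeq start of each gene (GRCh38.p14). It occurred in 9 of the 126 called-higher genes with a promoter in the table (7.14%) and in none of the 68 called-lower genes, against 3.19% of all 27305 promoters and 1.67% of the 10175 promoters of genes tested. The strongest risers with a match were SYTL1, CHAC1 and ATF3, followed by GOT1, AARS1 and ASNS, which was chosen after its values were seen. All of these but SYTL1 are printed, because they cover stress factors, amino acid synthesis and tRNA charging, with the element in capitals, written 5′ to 3′ on the strand of the gene.
CHAC1 (chr15:40953221-40953314, plus strand): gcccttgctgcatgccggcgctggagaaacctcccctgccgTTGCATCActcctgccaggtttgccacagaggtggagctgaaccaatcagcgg
ATF3 (chr1:212565171-212565268, plus strand): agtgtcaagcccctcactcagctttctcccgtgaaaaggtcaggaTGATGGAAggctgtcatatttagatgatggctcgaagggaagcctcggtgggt
GOT1 (chr10:99430770-99430867, minus strand): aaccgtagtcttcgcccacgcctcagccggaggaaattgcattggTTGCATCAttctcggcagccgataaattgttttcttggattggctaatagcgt
AARS1 (chr16:70289641-70289738, minus strand): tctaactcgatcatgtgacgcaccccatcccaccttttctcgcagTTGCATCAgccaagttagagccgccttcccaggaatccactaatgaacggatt
ASNS (chr7:97872424-97872521, minus strand): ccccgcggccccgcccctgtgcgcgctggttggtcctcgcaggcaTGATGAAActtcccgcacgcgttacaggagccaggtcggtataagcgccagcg
The element began 209 bases before the gene start in CHAC1, 191 in ATF3, 198 in GOT1, 187 in AARS1 and 68 in ASNS. ATF3, a stress-induced repressor of the same family as ATF4, went from 4.44 and 4.48 to 6.06 and 6.54, at least 2.82-fold. ASNS, asparagine synthetase, rose by 0.97. A match is a description of the letters, and binding was not measured.

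Genes of amino acid synthesis, transport and tRNA charging were called higher and none lower. Of 22 enzymes of serine, asparagine, proline, cysteine and folate metabolism tested, 10 were called higher (45.5%, against 1.32% of all genes) and none lower. Their median was 0.60, against 0.0146 for all genes. All 3 enzymes of the serine pathway were among them. PSAT1, its aminotransferase, rose from 8.61 and 8.88 to 11.38 and 11.08 (2.49 ± 0.20, adjusted p = 3.41e-07), PSPH, the phosphatase, by 1.41 and PHGDH, the first enzyme and the brightest of the 3 at 11.78 and 11.92, by 1.09. CTH, which makes cysteine from cystathionine, was seen on neither control array and rose at least 2.69-fold. The transaminase GOT1 rose by 1.28 and the mitochondrial folate enzyme MTHFD2 by 1.06. CTH, GOT1, PSAT1 and PSPH kept the call with any 1 array left out, and 4 to 6 of the 10 were called in a given fit.

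Of 19 amino acid transporters, 5 were called higher (26.3%, against 1.32% of all genes) and none lower. SLC6A9, the glycine transporter, rose most, from 5.04 and 5.29 to 7.73 and 7.60 (2.50 ± 0.16, adjusted p = 1.47e-08). The carriers of neutral amino acids SLC1A4 and SLC1A5 rose by 1.17 and 1.12, the cationic carrier SLC7A1 by 0.94 and SLC3A2, the heavy chain shared by several exchangers, by 0.85. SLC6A9 alone kept its call in all 4 fits with an array left out, in which 1 to 3 of the 5 were called. SLC7A11, the cystine importer, differed by 0.47 and was not called.

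Synthetases of the cytosol and of mitochondria were counted apart. The share called higher was 27.8% for the cytosolic ones, against 1.32% of all genes. Among 18 cytosolic aminoacyl-tRNA synthetases tested, WARS1 (1.61), AARS1 (1.25), GARS1 (1.05), SARS1 (1.03) and YARS1 (0.62) were called higher, the median was 0.434, and AARS1, GARS1 and WARS1 kept the call whichever array was left out. WARS1 went from 8.83 and 8.65 to 10.32 and 10.38. Of 16 mitochondrial synthetases none was called, a count that a list of this size can hold at the share of 1.98% over all genes, and their median was 0.0406. EIF1, a factor of start codon choice, was the only translation factor of 47 called higher (0.75), and PABPC1, the poly(A)-binding protein, the only one called lower (-0.75), the latter at 1 of its 2 probes while the other gave 0.05.

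Among 23 ER chaperones and folding enzymes, whose median was -0.227, SDF2L1 alone was called. SDF2L1, a cofactor of the chaperone BiP, fell from 10.01 and 9.93 to 9.27 and 9.12 (-0.78 ± 0.14, adjusted p = 2.74e-03), and this call was lost without any 1 of the 4 arrays. With 1.32% of all genes called higher, the lack of a called rise among 23 genes is no result about the list. HSPA5, which encodes BiP, stood at 7.0 and 7.27 in the control and at 6.15 and 6.35 under artesunate, a difference of -0.89 ± 0.23 with an adjusted p of 0.0335. CALR, calreticulin, differed by -0.51 (adjusted p = 0.112). Of 8 transducers of the IRE1 and ATF6 arms none was called, which 8 genes can hold at the share of 1.98% over all genes. All 8 differed upward, as did 6822 of all 12908 genes, and their median was 0.25. ATF6, at 8.54 and 8.50 against 9.07 and 9.09, missed the threshold with 0.56 ± 0.14 and an adjusted p of 0.0342. EDEM1, which hands misfolded glycoproteins to degradation, was the only one of 19 genes of ER-associated degradation called, with a rise of 0.76 (adjusted p = 9.91e-03) that was lost without any 1 array.

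**Figure D4:**
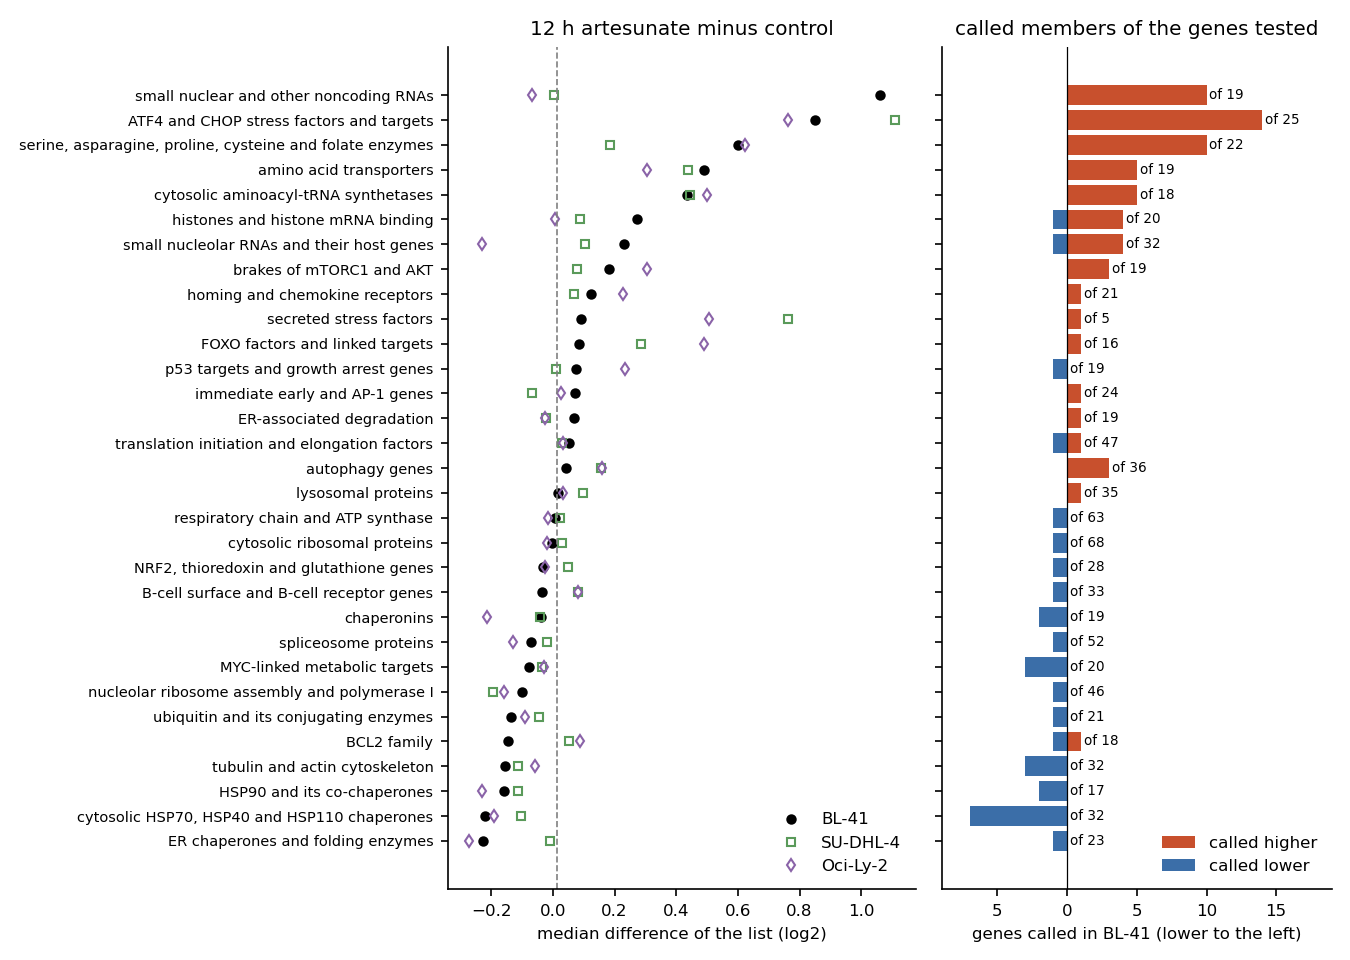
Left, the median difference of 12 h artesunate from 12 h control (log2, horizontal axis) of each gene list with a called member in BL-41 (black circles), with the medians of the same genes in SU-DHL-4 (green squares) and Oci-Ly-2 (purple diamonds). The dashed line is the BL-41 median of all 12908 genes, 0.0146. Right, how many genes of each list were called higher (red) or lower (blue, to the left) in BL-41, of the number tested. The noncoding RNAs had 10 of 19 called higher and a median of 1.06 in BL-41, against 0.005 and -0.0679 in the other lines.

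Chaperones of the cytosol were the list with the most falls. Of 32 HSP70, HSP40 and HSP110 chaperones and cofactors tested (of 39 listed), 7 were called lower and none higher, against 0.666% lower among all genes, with a median of -0.221. HSPA1B, the inducible HSP70, dropped from 9.60 and 9.45 to 6.44 and 6.48, by 3.07 ± 0.27 (adjusted p = 5.11e-07), an 8.40-fold change and the largest fall measured. The coding sequence of HSPA1B is nearly that of HSPA1A, which was not among the genes tested, and the reading may hold both. The co-chaperone BAG3, which links HSP70 to autophagy, went from 7.67 and 7.16 to 5.37 and 5.58 (-1.94 ± 0.22, adjusted p = 1.84e-05). DNAJB1, the main HSP40 partner of inducible HSP70, fell from 8.87 and 8.24 to 6.72 on both arrays (-1.83 ± 0.20). HSPA8, the constitutive HSC70 and one of the brightest probes at 12.87 and 12.93, was at 11.28 and 11.32 under artesunate (-1.60 ± 0.16, adjusted p = 2.48e-06), and both of its probes were called. DNAJA1 and HSPH1 fell by 0.92 and 0.86. HSPA1B, BAG3, DNAJB1 and HSPA8 kept the call with any 1 array left out, and the other 3 lost it in at least 2 of the 4 fits. HSF1 itself differed by 0.12.

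Among 17 HSP90 proteins and co-chaperones, PTGES3 (p23) fell from 9.27 and 9.31 to 7.97 and 8.03 (-1.29 ± 0.14, adjusted p = 5.90e-06) and CHORDC1 by 0.80, while HSP90AA1 and HSP90AB1 differed by -0.45 and -0.39 and were not called. Of 19 chaperonin genes, HSPE1, the mitochondrial HSP10, fell from 10.54 and 10.72 to 9.04 and 7.85, a difference of -2.19 whose artesunate arrays lay 1.19 apart. Its adjusted p of 3.80e-03 passed the threshold without artesunate d1 (0.00271) and missed it without control d1 (0.0313), control d3 (0.0513) or artesunate d3 (0.112). TCP1, a subunit of the cytosolic chaperonin, fell by 0.78 at 1 of 3 probes. HSPD1, the partner of HSPE1, differed by -0.26, and the mitochondrial HSP70 HSPA9 by 0.56, neither called.

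The heat shock element bound by HSF1, searched as GAA, TTC and GAA in a row with 2 bases of any kind between them, on both strands of the same 250 bases, occurred in 2 of the 68 called-lower genes with a promoter in the table (2.94%) and in none of the 126 called-higher genes, against 0.439% of all promoters. Both sequences are printed with the element in capitals, since both genes encode chaperone proteins that fell.
HSPA8 (chr11:123062137-123062386, minus strand): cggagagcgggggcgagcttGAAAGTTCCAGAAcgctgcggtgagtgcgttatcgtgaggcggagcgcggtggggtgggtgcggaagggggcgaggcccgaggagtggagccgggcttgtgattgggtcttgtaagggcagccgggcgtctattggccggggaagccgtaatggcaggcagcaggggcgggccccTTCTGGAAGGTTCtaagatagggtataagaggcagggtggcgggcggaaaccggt
CHORDC1 (chr11:90223050-90223154, minus strand): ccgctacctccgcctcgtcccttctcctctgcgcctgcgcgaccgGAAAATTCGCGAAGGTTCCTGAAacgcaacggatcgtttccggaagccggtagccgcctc
HSPA8 holds 2 matches and CHORDC1 3 overlapping ones, the nearest beginning 55 and 50 bases before the gene start. Promoters with no match, among them those of other chaperones that fell, lack only this exact spelling in this window.

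Most of the genes whose response was called different from that of the other lines, 16 of 24, were small noncoding RNAs, ribosomal RNAs and histone genes, all higher in BL-41. The 16 include H3C14, H3C15 and H4C2, detected on at most 1 of the 22 arrays outside the BL-41 12 h artesunate group. They entered the test through that group, which all but fixes their difference. RNU5A-1, also included, was detected on none of the 16 arrays of the other lines. It too entered the test through the 12 h artesunate arrays of BL-41. Spliceosomal snRNAs, the 7SK RNA that holds back transcription elongation, ribosomal RNAs and most mRNAs of replication-dependent histones share a feature: they carry no poly(A) tail, or only a short one, in normal processing. Of 19 small nuclear and other noncoding RNAs tested, 10 were called higher (52.6%, against 1.32% of all genes) and none lower. Of the 10, 7 were still called without control d1, 5 without artesunate d1, 7 without control d3 and 8 without artesunate d3, and 5 in all 4 fits. The median of the 19 was 1.06, against 0.005 for SU-DHL-4 and -0.0679 for Oci-Ly-2. Of the 19, 1 entered the test through the 12 h artesunate arrays of BL-41. Among the other 18, 9 were called higher and the median was 1.17. RNVU1-7, a variant of U1, the snRNA that reads the start of introns, went from 6.90 and 7.06 to 10.15 and 9.54 (2.86 ± 0.25, adjusted p = 5.11e-07), against 0.03 for SU-DHL-4 and -0.06 for Oci-Ly-2. RNVU1-18 rose by 2.83, RNU1-3 by 2.70 and RNU1-1 by 2.29, and all 4 U1 genes and variants kept the call with any 1 array left out. RNU4-2, the U4 snRNA that carries U6 into the spliceosome, rose from 5.89 and 5.43 to 8.30 and 8.44. RN7SK rose from 8.57 and 8.62 to 10.33 and 10.22 (1.68 ± 0.22, adjusted p = 1.10e-04) with 2 of 2 probes called. On all 16 arrays of the other lines RN7SK lay between 7.97 and 8.94, below both 12 h artesunate arrays of BL-41. These genes have near-identical copies in the genome, and the probes may read several of them.

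Ribosomal RNA rose with them. RNA28SN5 went from 8.91 and 8.08 to 11.92 and 10.97 and RNA18SN5 from 8.01 and 7.65 to 10.81 and 9.91, with gaps of up to 0.95 between arrays of a group, and RNA5S9 from 7.91 and 7.82 to 10.04 and 9.80. Only RNA28SN5 lost the call in some of the fits with an array left out, without artesunate d1 (adjusted p = 0.0137) and without control d3 (0.0134). Of the small nucleolar RNAs the 3 U3 genes SNORD3A, SNORD3C and SNORD3D, which guide the first cuts of the ribosomal precursor, rose by 1.52, 1.36 and 1.43. SNORD30 fell by 0.79, and the 158 small nucleolar RNAs tested had a median of -0.0059. SNORD3C and SNORD3D lost the call without any 1 array and SNORD3A in 3 of the 4 fits. Over all genes that RefSeq classes as snRNA, 10 of 14 were called higher in BL-41 (71.4%, against 1.32% of all genes), none in either of the other lines. Of the 14, 1 entered the test through the 12 h artesunate arrays of BL-41, and 9 of the other 13 were called higher. Between 6 and 8 of the 10 were called with 1 array left out.

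Of 44 replication-dependent histone genes tested, picked by symbol after their values were seen, 13 were called higher (29.5%, against 1.32% of all genes) and none lower. The filter on dim probes bears on this count. Of the 44, 11 were detected on fewer than 2 of the other 22 arrays and so entered the test through the 12 h artesunate arrays of BL-41, which all but fixes that they differ upward there and are flat in the other lines. These 11 held 8 of the 13 calls (H2AC8, H2AC21, H2BC7, H2BC15, H3C14, H3C15, H4C1 and H4C2). Among the other 33, 5 were called higher, 25 differed upward and the median was 0.365, with 0.118 for SU-DHL-4 and -0.0658 for Oci-Ly-2. H2AC17 went from 4.56 and 4.97 to 7.19 and 6.86 (2.27 ± 0.28, adjusted p = 4.51e-05). H2AC6 and H1-4, both undetected in the controls, were at least 2.90-fold and 2.40-fold higher. On neither control array were 23 of the 44 detected. Of the 13, 8 were still called without control d1 or artesunate d1, 9 without control d3 or artesunate d3, and 6 in all 4 fits. SLBP, the protein that binds the stem-loop at the end of histone mRNAs, moved the other way, from 9.38 and 9.58 to 8.58 and 8.23 (-1.08 ± 0.20, adjusted p = 2.81e-03), a call kept in 1 of the 4 fits and at 1 of 2 probes. SLBP fell in the other lines too, by 1.04 (SU-DHL-4) and by 1.24 (Oci-Ly-2). Of 45 DNA replication genes none was called in BL-41, a count that a list of this size can hold at the share of 1.98% over all genes. Their median was -0.0163.

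The medians of the snRNAs and ribosomal RNAs also lay lower in the 12 h than in the 0 h control. Between the 0 h and the 12 h control the snRNAs had a median of -0.273, the U1 genes of -0.442 and the 3 ribosomal RNAs of -0.872, while all genes had 0.00101, and no gene was called. The rise is therefore smaller when it is taken against the 0 h control: for RNVU1-7 it was 2.46 (adjusted p = 4e-06) in place of 2.86, and 11 of the 19 noncoding RNAs were called. A change with time was not established, and the part of this gap between controls in the 12 h difference was not tested. The labels name total RNA and a standard labelling protocol, and RNA quality values were not analysed here.

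The difference between lines was tested in the same limma model as the BL-41 response minus the mean response of SU-DHL-4 and Oci-Ly-2. It was called for 24 genes (0.186%), of which 22 (0.170%) were higher and 2 (0.0155%) lower in BL-41. Of the 22, 8 were snRNAs, 2 ribosomal RNAs, 2 small nucleolar RNAs, 4 histone genes and 1 a long noncoding RNA, CRNDE, leaving 5 other protein-coding genes. RNA28SN5 differed most, by 4.16 ± 0.52 (adjusted p = 3.29e-04), with -0.47 in SU-DHL-4 and a fall of 1.95 in Oci-Ly-2. RNA18SN5 rose in Oci-Ly-2 too (1.94), and its difference between lines was not called. Of the 24, 10 kept the call with any 1 of the 4 arrays left out: the 4 U1 genes, RNA28SN5, H3C13, ASS1, TM6SF1, SCN4A and CRNDE. CRNDE is in this count although its entry to the test, given below, all but fixes its difference. In the other lines, TM6SF1, CRNDE, H3C14, H3C15, H4C2, RNU5A-1 and NR5A2 were detected on none of the 16 arrays and H3C13 on 1, so that for these genes the difference is a rise above background in BL-41 against background in both lines. H3C14, H3C15, H4C2, RNU5A-1 and CRNDE moreover entered the test through the 12 h artesunate arrays of BL-41, which all but fixes their difference. RN7SK, SNORD3D, RNU11, ZNF275, H3C15, NR5A2, RNF144B and BAG3 lost the call without any 1 array.

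**Figure D5:**
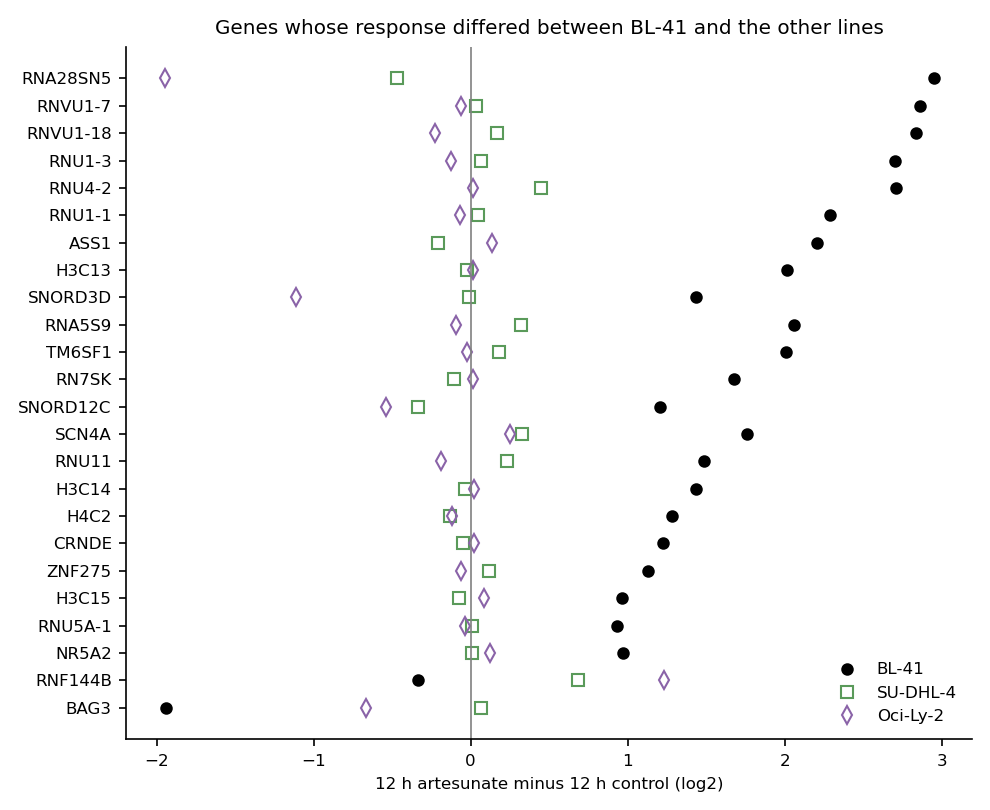
Difference of 12 h artesunate from 12 h control (log2, horizontal axis) in BL-41 (black circles), SU-DHL-4 (green squares) and Oci-Ly-2 (purple diamonds) for the 24 genes whose response was called different in BL-41, at the probe of that call, in the order of the difference. The 22 upper genes rose in BL-41 by 0.93 to 2.95, and BAG3 fell there by 1.94 against -0.67 in Oci-Ly-2, whereas its 0.07 in SU-DHL-4 is at background.

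The other protein-coding genes were ASS1, TM6SF1, SCN4A, ZNF275 and NR5A2. ASS1, argininosuccinate synthase, which makes arginine from citrulline, was read by 2 probes. At one it went from 4.82 and 4.71 to 6.65 and 7.29, against -0.21 for SU-DHL-4 and 0.14 for Oci-Ly-2 (difference 2.24 ± 0.23, adjusted p = 3.00e-05). At the other it went from 6.58 and 6.69 to 7.36 and 7.84. ASL, the next enzyme of the same pathway, differed by 0.42 in BL-41 and was not called. TM6SF1, a membrane protein of lysosomes, went from 6.89 and 7.09 to 9.08 and 8.92 (2.01 in BL-41, difference 1.93 ± 0.16, adjusted p = 2.81e-06). On the 16 arrays of the other lines it lay between 4.25 and 4.50, not detected on any of them. SCN4A, a sodium channel of muscle, and CRNDE were undetected in the BL-41 controls and at least 2.48-fold and 1.78-fold higher. The zinc finger gene ZNF275 rose by 1.13 and the nuclear receptor NR5A2 by 0.97. BAG3 was detected on none of the 4 arrays of SU-DHL-4 at 12 h, where it lay between 4.40 and 4.54, so that no fall could be seen there. Against Oci-Ly-2 alone, a comparison added after the values were seen, the difference was -1.27 ± 0.316 and was not called (adjusted p = 0.166). RNF144B, a ubiquitin ligase, showed the reverse pattern: it differed by -0.34 in BL-41, not called, against 0.68 in SU-DHL-4 and a rise of 1.23 in Oci-Ly-2. Against SU-DHL-4 alone its difference of -1.02 was not called (adjusted p = 0.187).

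For most of the 256 genes no difference between lines was called. Of the 256 genes, 68 were called in both other lines, 84 in Oci-Ly-2 but not SU-DHL-4, 5 in SU-DHL-4 but not Oci-Ly-2, and 99 in neither. In 211 of the 256 (82.4%) the sign was the same in all 3 lines, as it was in 46.9% of all genes. Among the 99 called in BL-41 alone, 70 higher and 29 lower, the difference between lines was called for 20 and 1. Of all genes, 1.26% were called at 12 h in SU-DHL-4, where Oci-Ly-2 had 4.21%. DDIT3, for example, rose by 2.92 in SU-DHL-4 and by 2.63 in Oci-Ly-2, and HSPA1B fell by 1.65 and 2.30.

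Among the falls outside the chaperones, PTMA, prothymosin alpha, a nuclear protein tied to growth, went from 9.05 and 9.40 to 7.72 and 7.79 (-1.47 ± 0.17, adjusted p = 1.42e-05). FABP5, a fatty acid carrier, went from 7.47 and 7.70 to 5.84 and 6.03 (-1.65 ± 0.19). SUMO2, a protein modifier, went from 9.42 on both arrays to 8.02 and 8.18 (-1.32 ± 0.12, adjusted p = 1.20e-06), and G3BP1, a core protein of stress granules, from 7.08 and 7.18 to 6.08 and 5.97 (-1.11 ± 0.14). PTMA, FABP5, SUMO2 and G3BP1 kept the call with any 1 array left out. Of 32 genes of tubulin and actin, TUBA4A (-1.07), TUBA1A (-0.97) and ACTR3 (-0.79) were called lower, none of them in all 4 such fits. The share of tubulin and actin genes called lower was 9.38%, against 0.666% of all genes. AMD1, which feeds polyamine synthesis, fell by 1.08, TIMP2, a protease inhibitor, by 1.18, RRM2B, a ribonucleotide reductase subunit induced by p53, by 1.19 and CAT, catalase, by 0.99.

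The falls were often seen at some probes of a gene only. Of the 86 lower genes 46 were read by several probes. In 31 of them all probes had the same sign, and in 2 all were called. The corresponding numbers for the higher genes were 51, 41 and 12. The second probe of SUMO2 gave 0.00 and that of UQCRH, a subunit of respiratory complex III called at -0.94, gave 0.04. Of 300 genes tested that RefSeq classes as pseudogenes, 7, such as ANP32CP, were called lower (2.33%, against 0.666% of all genes). None was called higher, against 1.32% of all genes. Such probes can read the parent gene as well.

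Part of the falls was visible at 4 h. On the 4 h artesunate and 0 h control arrays, whose levels did not enter the 12 h contrast, 39 of the 86 lower genes (45.3%) had an unadjusted p under 0.05 in the same direction, where 3.97% of all genes had, and their median was -0.287. PTMA differed by -1.16 at 4 h, ACTR3 by -0.88, SUMO2 by -0.81, PTGES3 by -0.77 and G3BP1 by -0.74. Of the heat shock genes HSPA1B differed by -0.21, HSPA8 by -0.10 and DNAJB1 by 0.23. Of the 170 higher genes, 14 (8.24%) had such a p at 4 h, against 3.87% of all genes, and their median was 0.087. DDIT3 differed by 0.46, ATF3 by 0.53 and INHBE by 0.53. No gene was called at 4 h, at an unadjusted p under 0.05 for 2062 of the 25017 probes, nor between the controls of 12 h and 0 h, with 1422 such probes. Drug and time in culture cannot be told apart at 4 h, since no 4 h control was among the groups.

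Most other lists had counts near the share of 1.98% called among all genes. At that share lists of this size hold few calls or none, and those counts are given as such. The metabolic genes linked to MYC and the autophagy genes had higher shares. MYC, the oncogene of this lymphoma, stood at 10.71 and 10.59 in the control and at 10.16 and 10.66 under artesunate, so that the groups overlapped (-0.24 ± 0.18, adjusted p = 0.633), and none of 9 genes of the MAX network was called. Of 20 metabolic genes linked to MYC 3 were called lower: HSPE1, FABP5 and PTMA. None was called among 38 mitosis genes, 36 proteasome genes, 24 glycolysis genes, 24 genes of cholesterol supply and 24 genes of heme and iron, where HMOX1 differed by -0.14. Of 63 respiratory chain genes UQCRH alone was called, of 68 ribosomal protein genes RPL9 alone (-0.85 at 1 of 3 probes) and of 28 genes of NRF2 and glutathione CAT alone. Autophagy had 3 of 36 called higher (8.33%, against 1.32% of all genes): CCPG1, MAP1LC3B (0.96), which coats autophagosomes, and the receptor CALCOCO2 (0.63).

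Among 18 members of the BCL2 family, PMAIP1, the death-promoting NOXA, rose from 7.92 and 7.86 to 8.55 and 8.67 (0.72 ± 0.13, adjusted p = 2.94e-03) at 1 of 2 probes, and BIK, another BH3-only protein, fell from 8.83 and 9.03 to 8.39 and 8.0 (-0.74 ± 0.15, adjusted p = 8.78e-03). Each is 5.56% of the 18, against 1.32% called higher and 0.666% called lower among all genes. PMAIP1 lost its call without any 1 of the 4 arrays, and BIK in 3 of the 4 fits. None of 27 death receptor and caspase genes was called. At the share of 1.98% over all genes, lists of this size, like that of the B-cell surface genes below, hold few calls or none. Of 33 B-cell surface genes MME, which encodes the germinal centre marker CD10, alone was called, falling from 8.61 and 8.75 to 8.08 and 7.90 (-0.69 ± 0.13, adjusted p = 3.11e-03) at 1 of 4 probes, a call lost without any 1 array. MS4A1, which encodes CD20, stood at 7.24 and 7.21 against 6.59 and 6.61, and missed the threshold with -0.62 and an adjusted p of 0.0452. The summed level of 6 plasma cell markers, all detected on all 4 arrays, was 4820 to 4900 in the control and 3870 to 4190 under artesunate on the linear scale, with none of the 6 called. Of the 6, 5 differed downward and 1 upward. The sums of the B-cell markers overlapped, with 9780 to 10500 in the control and 9550 to 9870 under artesunate. Those of the germinal centre and Burkitt markers were 5560 to 6470 and 5020 to 5480. Of all genes, 48.0% had no overlap between the control and the artesunate arrays, and the brightest members weigh most in a linear sum.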

How the data were processed

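The authors deposited linear, non-normalized intensity values and detection p-values of every array, besides processed intensity values that differed by at most 0.0207 on the log2 scale from a quantile normalization of the former. The deposited p-value compares a probe with negative controls. No depth applies to arrays; their number limits precision. Signals were background-corrected with neqc (limma 3.58.1, R 4.3.3; negative controls inferred from the detection p, offset 16), quantile-normalized and taken to log2. A probe was tested if 2 or more of the 24 arrays had a detection p below 0.05 (25017 of 47319; 17314 with 1 gene symbol, 3 with several, 7700 with none). Of the 47319 probes 30112 had 1 symbol, 8 several and 17199 none in the platform's annotation.

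All contrasts came from 1 limma fit of 12 group means (12 residual and 7.418 prior degrees of freedom). The thresholds for a call, those of the study's methods, were 0.5 for the size of the log2 difference and 0.01 for the p adjusted after Benjamini and Hochberg. For a gene with several probes, the called probe of smallest difference gave the value, or the brightest probe if none was called. Where neither control array detected a probe, the fold is a bound: the mean of the artesunate arrays against that of, per control array, the higher of the probe's signal and the lowest signal among detected probes.

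On simulated data for this comparison (25017 probes), 76, 155 and 199 of 200 probes changed by 0.75, 1 and 2 on the log2 scale were recovered, with 6 calls among unchanged probes. The simulated noise was normal and independent between arrays. Deviations shared by arrays of 1 number were not simulated, so recovery and false calls in the real data may differ. Named were the 20 largest rises and falls, up to 6 called members of each gene list, the 10 largest differences between lines in each direction, 10 genes of the stress response, chaperones and MYC, the 10 widest gaps between arrays, ACTB, GAPDH and cell markers; Y-linked genes and XIST were left out. The lists were written from general knowledge, and the members, lists and tests were chosen with earlier results of these data known. Promoters and gene classes come from RefSeq (GRCh38.p14), matched by symbol. No batch, slide or scan was given.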

Additional observations from a re-analysis of the deposited data

Results flagged for a closer look

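The response of BL-41 was set against the mean response of SU-DHL-4 and Oci-Ly-2 within the limma model, and 24 genes differed past the threshold. Higher in BL-41 on the log2 scale were RNA28SN5 by 4.16, RNVU1-7 by 2.88, RNVU1-18 by 2.87, RNU1-3 by 2.73, RNU4-2 by 2.48 and RNU1-1 by 2.30. They were followed by ASS1 with 2.24, H3C13 with 2.02, SNORD3D with 1.995, RNA5S9 with 1.94, TM6SF1 with 1.93 and RN7SK with 1.73. SNORD12C differed by 1.64, SCN4A by 1.47, RNU11 by 1.47, H3C14 by 1.44, H4C2 by 1.41 and CRNDE by 1.24. The smallest were ZNF275 at 1.10, H3C15 at 0.96, RNU5A-1 at 0.95 and NR5A2 at 0.90. Lower in BL-41 were RNF144B at -1.29 and BAG3 at -1.64, the latter at background in SU-DHL-4. No group held enough arrays for a search for single outlying arrays.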

How the results depend on the processing

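The main setting called 170 genes higher and 86 lower, and 24 genes different between lines. An adjusted p under 0.05 gave 340, 216 and 39, median scaling 98, 44 and 12, and array quality weights 131 lower. With the lowest probe of each gene 42 were lower. The 8 BL-41 arrays fitted alone gave 74 higher and 13 lower, the 4 compared arrays alone 49 and 6, and the 0 h and 12 h controls averaged as reference 284 and 144. Leaving out 1 of the 4 arrays gave 72 to 82 higher, 17 to 21 lower and 11 to 14 different between lines. The fits without an array or on BL-41 alone hold fewer arrays, and for the other settings the cause was not tested. Of the 93 named genes called, 49 to 51 kept the call without 1 array and 67 under median scaling. The deposited processed values gave 169 higher, 88 lower and 21 different, and 188 of the 256 genes were shared. ATF4 turned to -0.0719 and PMAIP1 to -0.0436 at the lowest probe, and PABPC1 to 0.0514, SUMO2 to 0.00365 and UQCRH to 0.0369 at both the lowest and the brightest probe. The array number as a replicate block gave 187 higher, 78 lower and 23 different, with 228 of the 256 genes shared; numbers crossed in the 12 h artesunate group, chosen after seeing the data, gave 217, 103 and 28. Same-numbered arrays deviated together among the 0 h, 4 h and 12 h control groups (r = 0.134 to 0.207) and oppositely to the 12 h artesunate group (r = -0.181 to -0.144), so the numbers were not taken to pair the arrays. A block on slides was not run, since no slide was given. Dim probes, such as most histone genes, are limited by the detection floor.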
